A study of Mus musculus with 12 samples.

Results

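Of 31600 predicted noncoding transcripts in the kidney catalogue, 1077 had no read in any of the 4 normal kidney libraries and at least 2 uniquely mapped reads in each of the 2 wild-type (WT) libraries from obstructed kidneys. These 1077 transcripts are the members described below, and they carry only running numbers (ncRNA_predict_ followed by a number). The rule also names 3 predicted transcripts to leave out, and none of the 3 met it. The members were chosen by their read counts in the normal and WT obstructed libraries, so their levels in those 6 libraries are given as a description. The question was how the members behave in the 6 libraries that the rule did not use. There, 951 members had at least 1 read: 798 in at least 1 library from WT kidneys with antibody-induced nephritis, 660 in obstructed kidneys lacking Smad3 and 300 in nephritic kidneys lacking it. Of the 1077 members, 278 passed the filter on low counts of the edgeR test, towards which the WT obstructed reads count. With only the 4 libraries compared, 13 passed it for the nephritic groups and 10 for the groups lacking Smad3. None of the 278 passed the edgeR test between those groups. The member nearest to it, ncRNA_predict_16160, was lower in nephritic kidneys lacking Smad3 than in WT ones and was called under 7 of 18 alternatives, DESeq2 among them.

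The kidneys came from C57BL/6J mice, either WT or Smad3 knockout (KO), with 2 libraries in each of 6 groups. In unilateral ureteral obstruction (UUO) the left ureter was ligated and the kidney was taken at day 5, in groups of 8 mice of both genders. In the anti-glomerular basement membrane model (anti-GBM) the mice were immunized with sheep IgG and then given sheep globulin against mouse GBM at 60 μg/g body weight, with a day 10 in the schedule, and the labels do not state the day of harvest clearly. The control kidneys of both genotypes are labelled normal, although the protocol also speaks of sham surgery. Each library is named here by its group and a number that only tells the 2 libraries of a group apart, and the labels do not say how many mice a library holds.

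Ureteral obstruction raises the pressure in the tubules and leads to tubular injury, leukocyte influx and fibrosis of the interstitium, whereas anti-GBM disease starts in the glomerulus. Smad3 is a protein that moves to the nucleus when TGF-β binds its receptors, and there it drives many genes of fibrosis. A predicted transcript is one that the tables list without a match in a sequence database, so no function can be given for a member.

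The 12 libraries held between 4595261 (WT UUO 1) and 7342937 (WT UUO 2) reads on 42452 transcripts, 10852 of them with a database match. Outside the 2 most abundant transcripts the totals ran from 3175047 (KO anti-GBM 1) to 5811719 (WT UUO 2). In all 12 libraries more transcripts had 2 reads than 1 read. Whether both reads of a pair are counted is not given in the sources used here, so a count of 2, the minimum of the rule, may stand for a single fragment. Reads are not independent molecules, and the floors below cover counting error only. Levels are given as CPM, the reads per 1e6 reads of the library, scaled by TMM, which sets libraries to a common level over most transcripts. In bulk kidney RNA, fewer cells of a type and less RNA per cell cannot be told apart.

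Most members had few reads in the libraries that chose them. WT UUO 1 gave a median of 10 reads per member, from 2 to 228, and WT UUO 2 gave a median of 4, from 2 to 396. The 364 members with 5 or more reads in both libraries and the 131 with 10 or more were the better-covered minority. Just inside the rule stood 33 members with exactly 2 reads in both WT UUO libraries, and 400 had 2 reads in at least 1 of them. Just outside it stood 422 predicted transcripts with a single read in 1 WT UUO library, 1328 with no read in 1 and 2 or more in the other, and 1595 with 1 or 2 reads over the 4 normal libraries. In all, 4148 predicted transcripts had no read in the normal libraries, and 3295 of these were listed in at least 1 WT UUO library.

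The rule picked unlike numbers of transcripts when the groups were exchanged. With WT anti-GBM in place of WT UUO it found 515 transcripts, with KO UUO 288 and with KO anti-GBM 68. Turned round, with no read in the 4 UUO libraries and 2 or more in both WT normal libraries, it found 54. Thinned to 4595261 reads in every library, the original rule found 1031 transcripts, 834 of them members, and the reverse rule 55. Thinned to 3175047 reads outside the 2 most abundant transcripts, they found 851, 734 of them members, and 54. The libraries also differed in how many transcripts they listed at all. The share of all predicted transcripts listed ran from 34.2% (KO anti-GBM 1) to 87.3% (WT UUO 2), while the 4 normal libraries listed between 60.8% and 67.3%.

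The members were gathered in certain ranges of running numbers, a property that the rule does not use. Numbers 21001 to 26000 held 502 members, 46.6% of all members and 10.5% of the 4777 predicted transcripts in that range. Numbers 26001 to 27000 held 96 more, or 10.2% of that range. Numbers 27001 to 33000 held 221 members (3.76% of the range) and numbers 9001 to 15000 held 134 (2.40%). In numbers 1 to 7000, by contrast, 46 of 6962 predicted transcripts were members (0.661%).

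The ranges differed in the library that covered them most broadly. In numbers 21001 to 26000 the median share of a predicted transcript's length covered by reads was 67.9% in WT UUO 1, 57.3% in WT UUO 2 and 0% in all 4 normal libraries. In numbers 27001 to 33000 it was 88.7% in WT UUO 2, 19.7% in WT UUO 1 and 19.2% to 28.0% in the normal libraries. In numbers 9001 to 15000 KO UUO 1 had the highest median, 58.0%, and WT UUO 1 and the normal libraries had 0%. In numbers 16001 to 20000 WT anti-GBM 2 led with 86.0%. In numbers 1 to 7000 every library had a median above 0%, with WT UUO 2 highest at 82.8%. How the transcripts were predicted, and from which libraries, is not given in the sources used here. The part of the catalogue's making in the number of members was not tested, and the ranges were chosen after their values were seen.

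**Figure D1:**
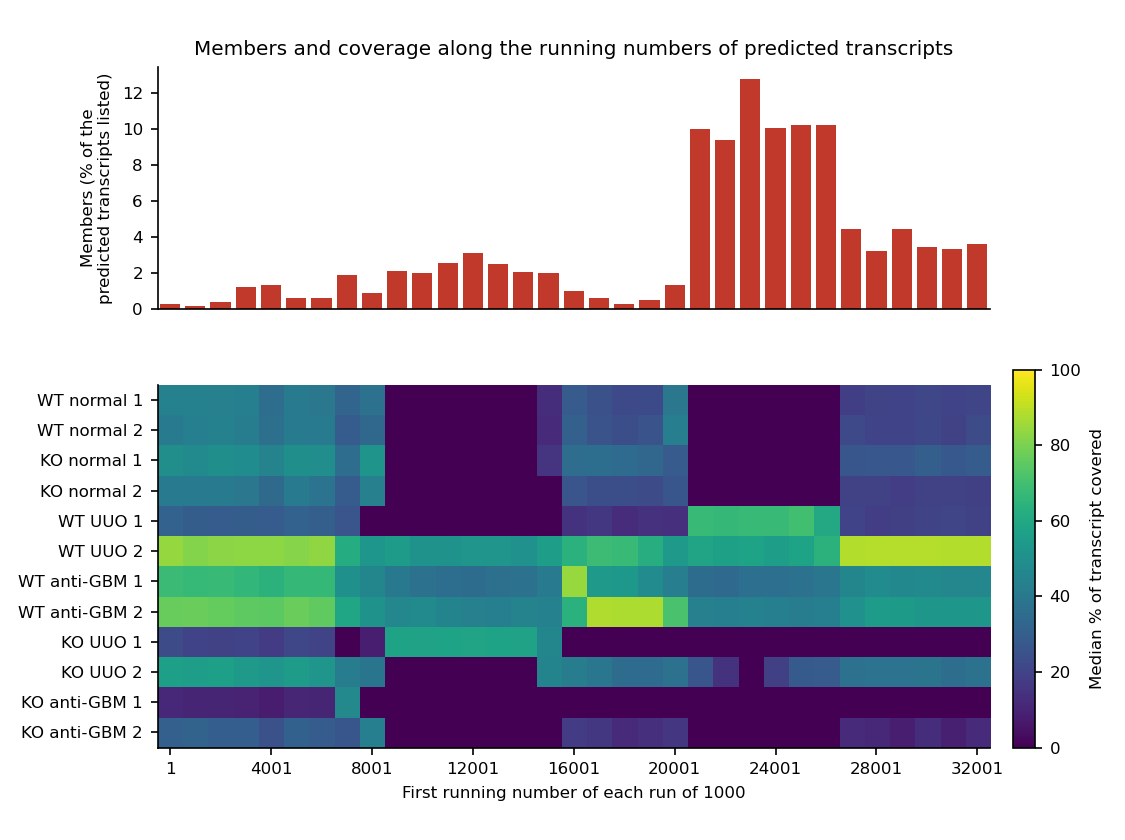
Upper panel, members as a percent of the predicted transcripts listed in each run of 1000 running numbers. Lower panel, the median percent of a predicted transcript's length covered by reads in each of the 12 libraries over the same runs; members are densest between 21001 and 27000, where the normal libraries have a median of 0%.

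The reads of the members followed the same ranges. Of the 14305 member reads in WT UUO 1, 8005 fell on numbers 21001 to 26000. Of the 11443 in WT UUO 2, 5659 fell on numbers 27001 to 33000. KO UUO 1 had 4792 member reads, 1915 of them on numbers 9001 to 15000, its own range of broadest coverage. In numbers 21001 to 26000 CPM was higher in WT UUO 1 than in WT UUO 2 for 486 of 502 members, and in numbers 27001 to 33000 for 49 of 221. Over all members it was 823 of 1077.

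Members were short. Their median length was 274 bases, from 150 to 6514, against 443 bases, from 150 to 9511, over all predicted transcripts. Length went with the number range as well, with a median of 238 bases for members in 21001 to 26000 and 607 bases in 27001 to 33000. All predicted transcripts of those 2 ranges had medians of 237 and 649 bases. The longest members were ncRNA_predict_3695 (6514 bases), ncRNA_predict_27333 (2172 bases) and ncRNA_predict_16160 (2021 bases). ncRNA_predict_3695 had 2 reads in each WT UUO library, covering 2.06% and 2.07% of its length, and 2 reads in WT anti-GBM 1. The shortest, at 150 bases each, were ncRNA_predict_21614, ncRNA_predict_22725 and ncRNA_predict_22839.

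**Figure D2:**
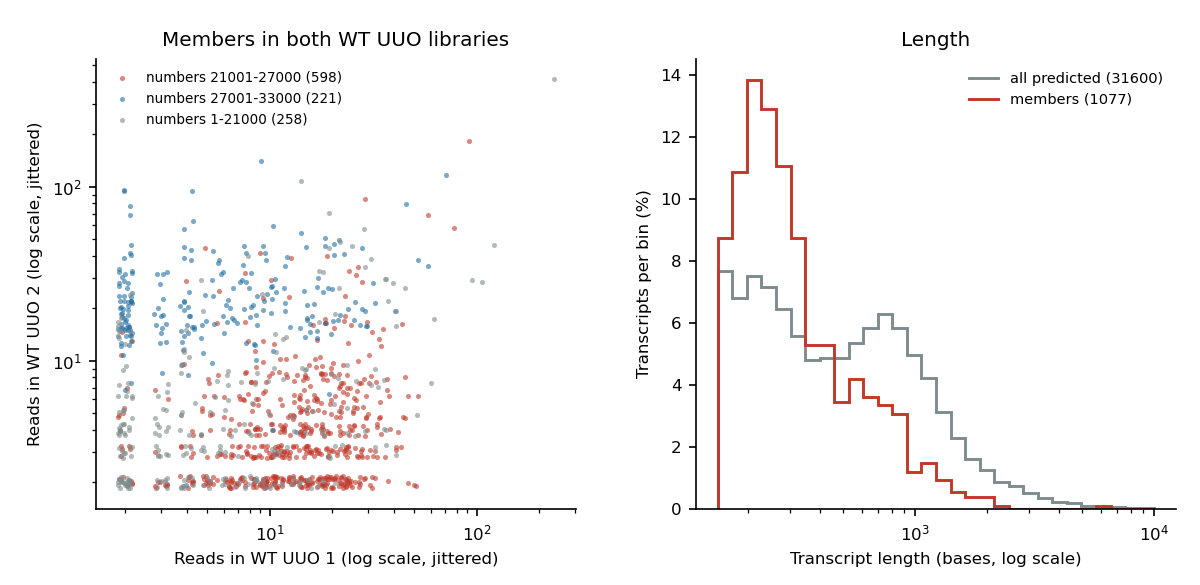
Left, reads of each member in WT UUO 1 (x) and WT UUO 2 (y), both on log scales with jitter, coloured by range of running numbers; right, the length distribution in bases (log scale) of the 1077 members and of all 31600 predicted transcripts as percent per bin. Members of 21001 to 27000 lie mostly to the right and low, those of 27001 to 33000 mostly high, and members are shorter than predicted transcripts as a whole.

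In the libraries that the rule did not use, most members had a read in at least 1 library. Of the 1077 members, 951 were listed in at least 1 of the 6 libraries and 126 (11.7%) in none. The commonest number of libraries was 2, with 277 members, followed by 3 with 261 and 1 with 226. Only 12 members had a read in all 6. By group, 798 were listed in WT anti-GBM, 660 in KO UUO and 300 in KO anti-GBM. The largest pattern was 359 members seen in WT anti-GBM and KO UUO but not in KO anti-GBM, and 173 were seen in all 3 groups.

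Single libraries kept that order. WT anti-GBM 1 and 2 listed 571 and 609 members, KO UUO 1 and 2 listed 348 and 504, and KO anti-GBM 1 and 2 listed 144 and 200. The 3 groups did not overlap on this count. Both libraries of a group listed 382 members in WT anti-GBM (35.5%), 192 in KO UUO (17.8%) and 44 in KO anti-GBM (4.09%).

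All predicted transcripts had the same order, with 71.4% listed in both WT anti-GBM libraries, 44.5% in both KO UUO libraries and 25.3% in both KO anti-GBM libraries. Across all predicted transcripts, KO anti-GBM 1 listed 10822 and KO anti-GBM 2 listed 16846, against 24885 and 26080 in the WT anti-GBM libraries. Thinned to equal totals, the members listed in both libraries were 29.9% in WT anti-GBM, 15.4% in KO UUO and 3.34% in KO anti-GBM. These totals include the 2 most abundant transcripts, so the depth over the other transcripts still differed. The breadth of listing moves with the groups, and its part in the members' order was not tested.

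Within number ranges the order was not the same. In numbers 21001 to 26000 both WT anti-GBM libraries listed 29.3% of 502 members and both KO UUO libraries 8.57%. In numbers 9001 to 15000 the shares were 41.0% and 44.0% of 134 members. In numbers 15001 to 16000 they were 27.8% and 66.7% of 18 members. In numbers 16001 to 20000, the range covered most broadly in WT anti-GBM 2, they were 91.3% and 21.7% of 23 members.

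The summed level of the members was far higher in the libraries that chose them than elsewhere, as the choice dictates. The 1077 members together held 2131 CPM in WT UUO 1 and 961 CPM in WT UUO 2. In the libraries not used by the rule the sum was 262 and 230 CPM in WT anti-GBM (246 ± 22.3, SD, n = 2), 510 and 221 CPM in KO UUO (365 ± 205) and 203 and 112 CPM in KO anti-GBM (157 ± 64.6). Both WT anti-GBM libraries stood above both KO anti-GBM libraries, and the KO UUO libraries spanned the WT anti-GBM values, with KO UUO 1 highest and KO UUO 2 just below them. Summed over all predicted transcripts the levels lay between 43896 CPM (KO anti-GBM 1) and 67780.1 CPM (KO normal 2).

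KO UUO 1 and KO UUO 2 reached their sums in different ways. KO UUO 1 listed fewer members, 348 against 504, but with a median of 11 reads per listed member against 2. Among members with 2 or more reads, the median of covered bases per read was 11.2 in KO UUO 1 against 62.1 in KO UUO 2. This value falls as the reads per member rise, and it is not the share of a member covered. WT UUO 1 (16.1 bases) and KO anti-GBM 1 (30.0 bases) also stood low, while WT UUO 2, both WT anti-GBM libraries and KO anti-GBM 2 lay between 41.3 and 56.5 bases. For their few covered bases per read, WT UUO 1, KO UUO 1 and KO anti-GBM 1 are called the 3 libraries of low coverage breadth below. By share of length covered, KO UUO 1 was highest in numbers 9001 to 15000 and WT UUO 1 in numbers 21001 to 26000.

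**Figure D3:**
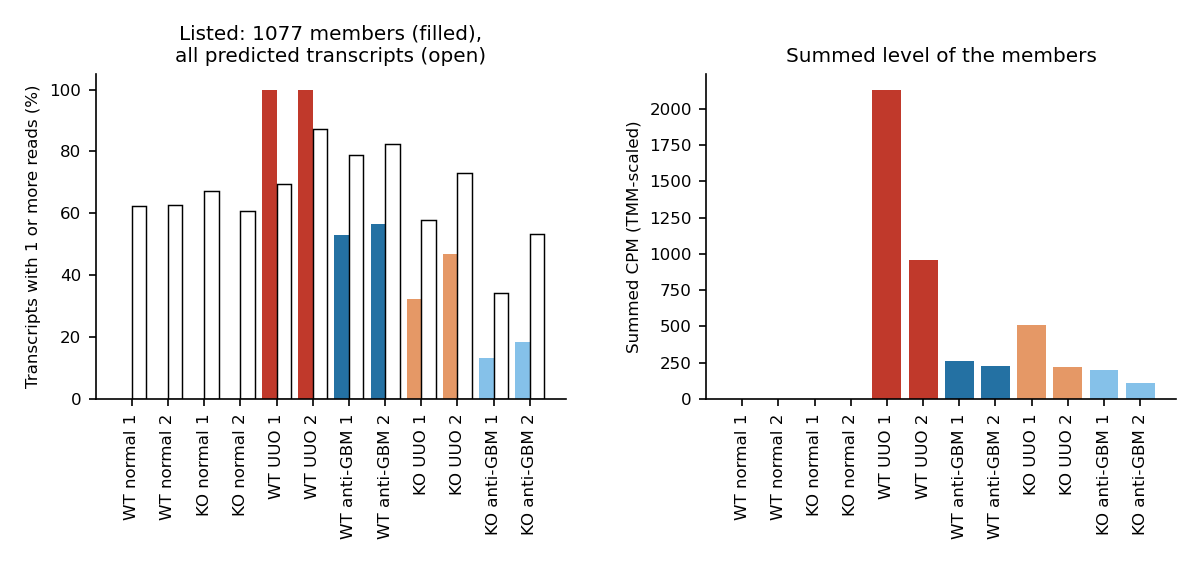
Left, percent of the 1077 members (filled) and of all predicted transcripts (open) with 1 or more reads in each library; right, summed TMM-scaled CPM of the members in each library. Members are at 0 in the normal libraries and at 100% in WT UUO by the rule, and WT anti-GBM lists more members than KO UUO and KO anti-GBM.

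No member passed the edgeR test between groups that the rule did not use. A quasi-likelihood model (edgeR) was fitted on all transcripts and 12 libraries; 278 of the 1077 members passed its filter on low counts and were among the 24816 tested. The WT UUO reads that chose the members count towards this filter. With only the 4 libraries compared, 13 members passed the filter for the anti-GBM groups and 10 for KO UUO and KO anti-GBM. Most members therefore could not be tested on these groups alone. In these 2 fits edgeR called 0 members, beside 0% of all transcripts tested. For the anti-GBM groups, 5 members (38.5%) had an unadjusted p under 0.05, beside 16.7% of all tested. For KO UUO and KO anti-GBM it was 2 members (20%), beside 5.29% of all. Nothing is read from so few members.

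In KO anti-GBM against WT anti-GBM, 0 of the 278 members were called at an adjusted p under 0.05, beside 0.0201% of all transcripts tested. An unadjusted p under 0.05 was found for 17 members (6.12%), beside 14.8% of all transcripts tested. DESeq2 called 1 member there, of 25 it tested, beside 2.32% of all. In KO UUO against KO anti-GBM, edgeR called 0 members, beside 0.0242% of all tested, and 32 (11.5%) had an unadjusted p under 0.05, beside 13.1% of all. DESeq2 called 0 there, beside 2.19% of all. Members entered the edgeR test mostly through their WT UUO reads and are often at 0 in both groups compared. Nothing is therefore read from their shares of low unadjusted p. Nothing says that the 2 libraries of a group came from separate litters or days, so p-values measure the spread between these samples.

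By group values alone, 275 of 1077 members (25.5%) were lower in both KO anti-GBM libraries than in both WT anti-GBM libraries, a share below the 33.9% of all transcripts. In the other direction 20 members (1.86%) stood higher, against 9.29% of all transcripts. KO UUO lay above KO anti-GBM without overlap for 141 members (13.1%), against 18.4% of all transcripts, and below it for 22 (2.04%), against 8.11%. Members are often at 0 in both groups, where no order exists. The WT UUO and WT normal libraries are the rule itself, and there edgeR called 4 members higher, beside 0.681% of all tested, from which nothing is read.

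ncRNA_predict_16160, 2021 bases long, was the member with the highest mean CPM over the 6 libraries not used by the rule. It had 17 and 33 reads in WT UUO, 87 and 29 in the WT anti-GBM libraries, 6 and 19 in KO UUO, and 0 in both KO anti-GBM libraries as well as in all 4 normal ones. The WT anti-GBM libraries were thus at or above 3.16 CPM and both KO anti-GBM libraries at 0, and reads covered 91.9% and 60.2% of its length in WT anti-GBM. Against a floor of 3 reads over the KO anti-GBM group, the WT anti-GBM mean of 6.89 ± 5.27 CPM (SD, n = 2) was at least 20.6-fold higher, and at least 9.43-fold without WT anti-GBM 1. In edgeR the difference had an unadjusted p of 0.000944 and an adjusted p of 0.161. It was lower in KO anti-GBM under all 18 alternatives and called under 7 of them, with adjusted p-values from 0.00207 to 0.591. The lowest came without the 3 libraries of low coverage breadth and the highest without WT anti-GBM 1, the library with 87 reads. DESeq2 called it with an adjusted p of 0.0198, and edgeR did so without either KO UUO library, without either WT UUO library and with library size alone. Among the predicted transcripts numbered 16001 to 17000, the median share of length covered was 84.5% in WT anti-GBM 1, the highest of the 12 libraries, 63.9% in WT anti-GBM 2, 0% in KO anti-GBM 1 and 17.8% in KO anti-GBM 2. The part of this coverage in the difference was not tested.

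ncRNA_predict_1826, with 23 and 45 reads in WT UUO, was chosen after its values were seen for its low unadjusted p. It had 2 and 11 reads in WT anti-GBM, 20 and 18 in KO UUO and 0 in both KO anti-GBM libraries. KO UUO lay above KO anti-GBM without overlap, at least 7.68-fold over the floor, with an edgeR adjusted p of 0.280. ncRNA_predict_21649, chosen in the same way, went the other way, with 11 and 6 reads in KO anti-GBM and 0 in WT anti-GBM and KO UUO. Its KO anti-GBM mean was at least 11.6-fold over the WT anti-GBM floor, or 6.84-fold without KO anti-GBM 1, and the edgeR adjusted p was 0.291. Neither of these 2 differences passed the test.

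A few of the named members were read in all 8 injured libraries. ncRNA_predict_7939 had 3 and 6 reads in WT UUO, 7 and 9 in the WT anti-GBM libraries, 23 and 2 in KO UUO, and 20 and 13 in KO anti-GBM. ncRNA_predict_29443 had 3 and 32 in WT UUO, 17 and 11 in the WT anti-GBM libraries, 2 and 7 in KO UUO, and 24 and 4 in KO anti-GBM. For ncRNA_predict_7939 both KO anti-GBM libraries stood above both WT UUO libraries, and for ncRNA_predict_29443 these groups overlapped. ncRNA_predict_16334 was likewise read in all 8, with 8 and 2 reads in WT UUO, 22 and 11 reads in WT anti-GBM, 21 and 1 in KO UUO and 2 and 8 in KO anti-GBM. ncRNA_predict_27992 was missing from KO anti-GBM 2 alone, with 9 and 133 in WT UUO, 28 and 4 in the WT anti-GBM libraries, 28 and 17 in KO UUO, and 6 and 0 in KO anti-GBM.

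Other members with a high mean over the 6 libraries owed most of it to 1 library. ncRNA_predict_5619 had 90 reads in KO UUO 1 and 0 in KO UUO 2, and reads in KO UUO 1 covered 24.2% of its 945 bases. ncRNA_predict_26002 had 70 and 5 reads in KO UUO, ncRNA_predict_14383 had 59 and 4, and ncRNA_predict_5676 had 56 and 7. In all 4 the library with many reads was KO UUO 1. In KO anti-GBM it was library 1 as well, with 31 and 0 reads for ncRNA_predict_26320, 28 and 3 for ncRNA_predict_7519 and 27 and 0 for ncRNA_predict_19114. The last of these also had 24 reads in WT anti-GBM 2, or 2.61 CPM beside 6.96 CPM in KO anti-GBM 1. KO UUO 1 and KO anti-GBM 1 are both among the libraries of low coverage breadth. That name rests on covered bases per read, not on the share of a member covered. In KO UUO 1 reads covered 47.4% of ncRNA_predict_26002, 86.8% of ncRNA_predict_14383 and 73.7% of ncRNA_predict_5676. In KO anti-GBM 1 they covered 79.0% of ncRNA_predict_26320, 83.7% of ncRNA_predict_7519 and 70.3% of ncRNA_predict_19114.

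The 10 members highest in WT UUO were picked by a level that the rule used, and they differed in how much they were read elsewhere. ncRNA_predict_27992, described above, is one of them. ncRNA_predict_3642, the highest, had 228 and 396 reads in WT UUO, 40 and 0 in KO UUO, and 0 in WT anti-GBM and KO anti-GBM. Its WT UUO mean of 33.6 ± 0.51 CPM (SD, n = 2) was at least 104-fold over the floor of 3 reads in the WT normal group, a fold that the rule itself favours. Its 396 reads in WT UUO 2 covered 60.1% of its 822 bases. Between KO UUO and KO anti-GBM its edgeR adjusted p was 0.333, and 6 of 17 alternatives called it, with adjusted p-values from 0.00226 to 1. Without KO UUO 1, which holds all 40 reads, both groups were at 0.

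ncRNA_predict_21984 had 89 and 178 reads in WT UUO, 2 and 0 in the WT anti-GBM libraries, and none in the KO libraries. ncRNA_predict_27421 had 70 and 117 in WT UUO and 2 reads in all the other libraries together, in KO anti-GBM 1. ncRNA_predict_20973 had 88 and 27 in WT UUO, with 3 more in WT anti-GBM 2. Each of these 3 was near 0 in every library that the rule did not use.

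ncRNA_predict_5377 had 129 and 43 reads in WT UUO, 0 in WT anti-GBM, 18 and 2 in KO UUO, and 0 and 10 in KO anti-GBM. In edgeR without the 3 libraries of low coverage breadth it was called higher in KO anti-GBM than in WT anti-GBM (adjusted p = 0.0361), with 1 KO anti-GBM library left. With all 12 libraries its adjusted p was 0.288, and that was the only call among 17 alternatives, whose adjusted p-values ran from 0.0361 to 1. ncRNA_predict_25285 had 73 and 60 in WT UUO, 2 and 2 in the WT anti-GBM libraries and 18 and 2 in KO UUO. ncRNA_predict_24758 had 62 and 66 in WT UUO, 5 and 0 in the WT anti-GBM libraries, 0 and 4 in KO UUO and 16 and 0 in KO anti-GBM. Outside WT UUO, most reads of the former came from KO UUO 1 and of the latter from KO anti-GBM 1. ncRNA_predict_28824 had 42 and 76 in WT UUO, 7 and 0 in the WT anti-GBM libraries and 10 and 12 in KO UUO, with 0 in KO anti-GBM. ncRNA_predict_20899 had 99 and 29 in WT UUO and at most 3 in any other library.

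The 126 members with no read in any of the 6 libraries included 5 that were well read in WT UUO. ncRNA_predict_29422 had 54 and 36 reads, ncRNA_predict_5504 had 44 and 27, and ncRNA_predict_6863 had 32 and 38. ncRNA_predict_3544 had 14 and 99 reads and ncRNA_predict_28876 had 4 and 102. Scaled to CPM, the first 3 were higher in WT UUO 1 than in WT UUO 2, at 8.05 against 3.02, 6.56 against 2.27 and 4.77 against 3.19. The last 2 were read mostly in WT UUO 2.

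**Figure D4:**
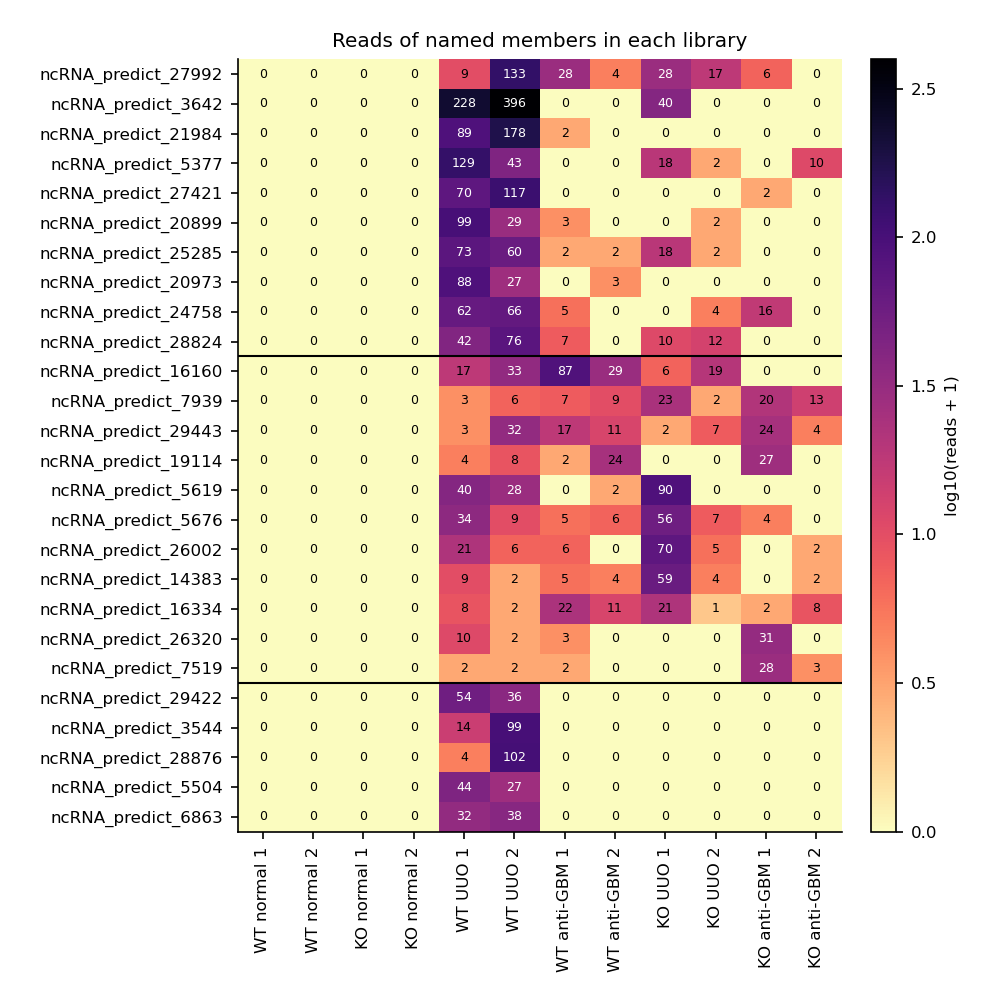
Reads of 26 named members in each of the 12 libraries, with colour on a log10(reads + 1) scale; the upper block holds the 10 highest in WT UUO, the middle block the other members of highest mean level over the 6 libraries not used by the rule, and the lower block the 5 highest among members with no read in those 6. In the upper and lower blocks the highest value outside WT UUO is 40 reads, and in the middle block it is 90.

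Members also stood next to each other in number. Of 1035 members whose next number is also listed, 133 (12.9%) were followed by another member, while members make up 3.41% of all predicted transcripts. That share varies with the range. In numbers 21001 to 27000, where members make up 10.5% of predicted transcripts, 85 of 569 (14.9%) were followed by a member. In numbers 27001 to 33000 it was 39 of 221 (17.6%), beside 3.76%, and in numbers 1 to 21000 it was 9 of 245 (3.67%), beside 1.29%. Neighbouring numbers need not be separate genes: among matched transcripts with consecutive numbers, 1978 of 9970 pairs (19.8%) carried the same database match. The tables give no coordinates or sequences for predicted transcripts, so whether neighbours belong to 1 locus was not analysed here.

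There were 9 stretches of at least 5 members with gaps of at most 3 numbers, and 4 of them held 6 or 7 members. Numbers 28875 to 28887 held 13 predicted transcripts, 7 of them members. Each of the 13 had between 19 and 238 reads in WT UUO 2, and their sum over 15569 bases was 732 reads there and 44 in WT UUO 1. The KO normal libraries had 5 and 3 reads on the transcripts that are not members, the WT anti-GBM libraries 0 and 2, KO UUO 8 and 11, and KO anti-GBM 0 and 2. The stretch was thus read mostly in 1 library.

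Numbers 27763 to 27769, with 6 members of 7 transcripts, had 230 reads in WT UUO 2, 20 in WT UUO 1, 2 in WT anti-GBM 2 and none elsewhere. Numbers 23853 to 23861, with 7 members of 8 transcripts, were read in both WT UUO libraries, with 105 and 73 reads, and had 10 and 8 in WT anti-GBM, 1 and 6 in KO UUO and 3 and 1 in KO anti-GBM, with 1 read in KO normal 1. Numbers 24949 to 24958, with 6 members of 9 transcripts, had 110 and 57 reads in WT UUO, 8 and 6 in the WT anti-GBM libraries, 10 and 13 in KO UUO and 2 and 1 in KO anti-GBM. Its transcripts that are not members also had 2 and 2 reads in WT normal and 3 and 6 in KO normal. Numbers 28875 to 28887 and 27763 to 27769 were read mostly in WT UUO 2, and the other two stretches in both WT UUO libraries. The 1077 members are therefore not counted as independent loci.

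**Figure D5:**
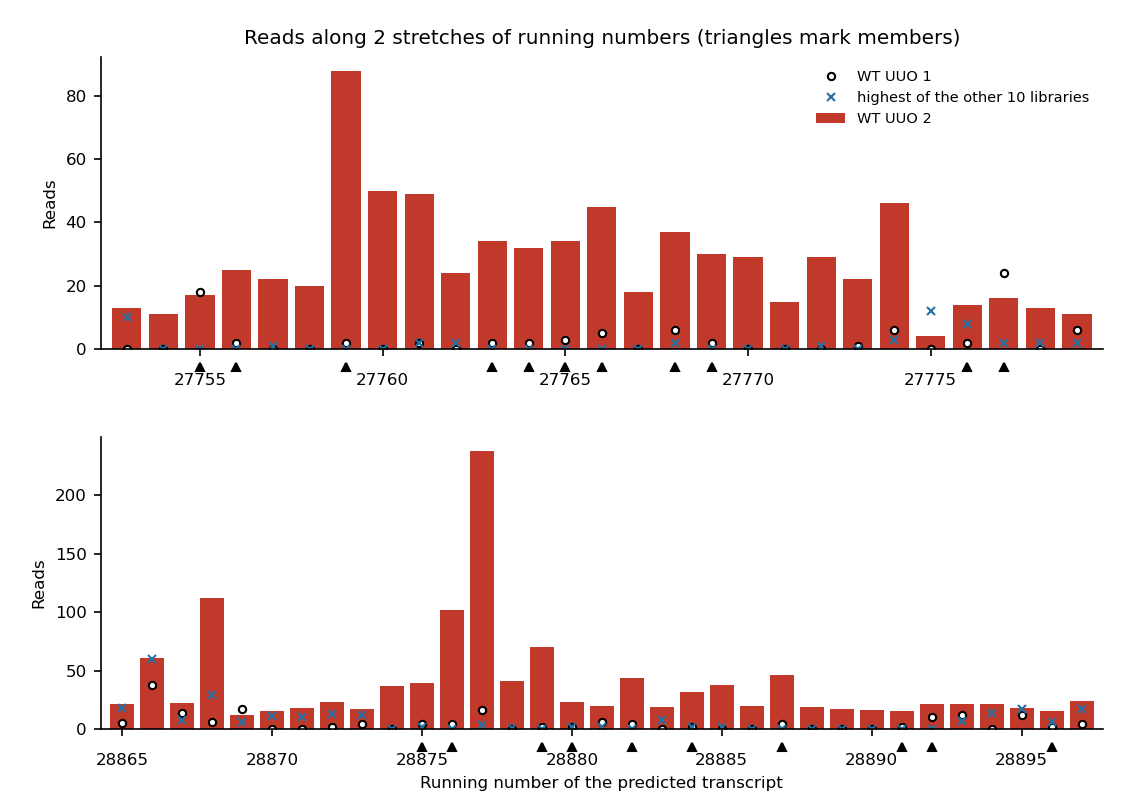
Reads per predicted transcript along 2 stretches of members, numbers 27763 to 27769 (upper) and 28875 to 28887 (lower), each drawn with 10 numbers on either side. Bars show WT UUO 2, circles WT UUO 1, crosses the highest of the other 10 libraries, and triangles mark members; in both, a run of neighbours is high in WT UUO 2 and near 0 elsewhere.

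A minority of members resembled a known RNA family. An RFAM model, a profile of an RNA family's sequence and structure, was given for 51 members (4.74%) against 2329 of all predicted transcripts (7.37%). The commonest was the signal recognition particle RNA (SRP_euk_arch), from which the B1 repeats of the mouse genome derive, with 31 members (2.88%) against 3.72% of predicted transcripts. These 31 had a median length of 314 bases, against 881 bases for all predicted transcripts with this model. Together they held 527 and 259 reads in WT UUO, 43 and 61 in the WT anti-GBM libraries, 275 and 42 in KO UUO, and 6 and 19 in KO anti-GBM. ncRNA_predict_5619 alone gave 90 of the 275 reads in KO UUO 1.

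The other 20 members with a model spread over 15 families, and these are named because they carry a model, not by their level. ncRNA_predict_24651 matched 7SK, the RNA that holds the elongation factor P-TEFb inactive, and had 31 and 17 reads in WT UUO, 5 and 3 in the WT anti-GBM libraries, 20 and 5 in KO UUO and 0 in KO anti-GBM. ncRNA_predict_22621 matched SNORD17, a small nucleolar RNA, with 32 and 13 reads in WT UUO, 2 and 4 in the WT anti-GBM libraries, 2 and 0 in KO UUO and 0 and 11 in KO anti-GBM. Neither was called between the groups that the rule did not use. Other models ranged from internal ribosome entry elements of L-myc (2 members) and c-myc (1 member) to families of bacteria, yeast or archaea such as tmRNA, CsrC, snR30 and RNaseP_arch, each with 2 members, so a model match does not identify the transcript.

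Among transcripts with a database match, 100 met the same rule. Of these, 36% were listed in both WT anti-GBM libraries, 22% in both KO UUO libraries and 7% in both KO anti-GBM libraries, beside 35.5%, 17.8% and 4.09% of the members. The difference between these sets was not tested. The highest in WT UUO, ncRNA_aligned_5173, matches a region predicted as conserved and noncoding and had 85 and 179 reads in WT UUO, 125 and 42 in the WT anti-GBM libraries, 138 and 182 in KO UUO and 21 and 0 in KO anti-GBM. ncRNA_aligned_11960, ncRNA_aligned_5127 and ncRNA_aligned_6773 match noncoding cDNAs. ncRNA_aligned_11960 had 66 and 188 reads in WT UUO and none in any other library.

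ncRNA_aligned_11387 matches the stem-loop destabilising element of the mRNA of G-CSF, the cytokine that drives neutrophil production. It had 12 and 94 reads in WT UUO and none in the other 10 libraries. ncRNA_aligned_5127 had 64 and 68 reads in WT UUO and 2 in KO UUO 2, and ncRNA_aligned_6773 had 41 and 27 in WT UUO, 4 and 4 in the WT anti-GBM libraries and 33 and 12 in KO UUO. H19 (ncRNA_aligned_2556), an imprinted long noncoding RNA of fetal tissues, also met the same rule. It had no read in the normal libraries and 10 and 15 in WT UUO. There were 1 and 1 in the WT anti-GBM libraries, 16 and 0 in KO UUO and 0 and 5 in KO anti-GBM.

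Few of the listed markers of cell types were found. Several of those found match elements of mRNAs, such as a region of the vimentin 3' untranslated region. Whether their reads come from the mRNA was not tested. Of the kidney epithelium list 2 of 12 markers were found, mir-135a-1 and mir-200b, with a summed level of 93.8 to 147 CPM in WT UUO, 159 to 186 in the WT anti-GBM libraries, 210 to 287 in KO UUO, 454 to 766 in KO anti-GBM and 270 to 635 in the normal libraries. The sum came mostly from mir-135a-1, and the 2 markers went opposite ways. In WT UUO mir-135a-1 had 98.2 and 51.5 CPM, against 751 and 438 in KO anti-GBM and 234 to 599 in the normal libraries. For mir-200b these values were 48.4 and 42.2, against 14.7 and 16.5 and 15.4 to 36.4. The renin element, the only marker of juxtaglomerular cells, ran from 5.12 CPM (WT anti-GBM 1) to 1238 CPM (KO anti-GBM 2). Of the leukocyte list 3 of 9 markers were found, the Spi1 or PU.1 element under both names and G-CSF, and the Spi1 element, of a transcription factor of myeloid cells, gave most of the sum. That sum was 46.6 and 58.9 CPM in WT UUO, 11.5 and 11.4 in the WT anti-GBM libraries, 13.4 and 16.6 in KO UUO, 8.76 and 7.09 in KO anti-GBM, and 0.609 to 16.3 in the normal libraries.

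Of the fibroblast list 4 of 8 markers were found, from vimentin, the CTGF element under both its names and H19, and they summed to 538 and 871 CPM in WT UUO, 574 and 373 in the WT anti-GBM libraries, 389 and 699 in KO UUO, 1264 and 1371 in KO anti-GBM and 321 to 475 in the normal libraries. The proliferation list had only the c-myc element, 1 of 6, from 12.4 CPM (WT normal 2) to 161 CPM (WT anti-GBM 1). The leukocyte sum was highest in the group that chose the members, but it includes ncRNA_aligned_11387 (G-CSF), which met the same rule. The fibroblast sum includes H19, which also met it. The Spi1 element alone had 44.8 and 50.7 CPM in WT UUO and at most 16.6 CPM in any other library. The part of cell types in the members' levels was not tested.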

How the data were processed

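Kidney RNA was depleted of ribosomal RNA, RNA over 150 bases was taken from a gel, and libraries were made from it, per the labels' protocols. The submitters' processing notes name Bowtie 0.12.7 and the mm9 build. Each deposited table gives the number of uniquely mapped reads per transcript as counts, per the file headers. The authors also deposited RPKM, which equals these counts per length and per total of the table to within a relative deviation of 1.75e-14, the length itself, the percent of each transcript covered, and a signal, the mean coverage depth. Where a table leaves out a transcript, its count was set to 0. The rule, the lists and the ways of naming were chosen with earlier results of these data known.

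The test on the counts of all 42452 transcripts in 12 libraries used edgeR 4.0.16 (R 4.3.3), with TMM scaling, filterByExpr by group, 1 mean per group and a robust quasi-likelihood fit. A transcript was called at an adjusted p (Benjamini-Hochberg, over all 24816 tested) under 0.05. The code was tested on simulated data. Adjusted p-values are from edgeR unless DESeq2 1.42.0 is named. A group at 0 was set to a floor of 3 reads over the group. Named members are the 12 of highest mean CPM over the 6 libraries that the rule did not use, the 10 highest in WT UUO, the 5 highest in WT UUO among those with no read in the 6, the 3 longest and 3 shortest, and any member called, of which there were 0; 5 matched transcripts that met the same rule were named by their WT UUO level. Markers were matched by the text of the database match. Alternatives were other scalings, DESeq2, no filter, only the 4 libraries compared, each library left out, other read minimums, thinning, and, added after seeing the data, ranges of running numbers and single libraries of a group.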

Additional observations from a re-analysis of the deposited data

How the results depend on the processing

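Of 92 alternatives, 47 left their result in place and 45 moved it, by a margin set for each kind of result. Counts were judged by a set ratio, and a count of 0 moved with any call. Shares listed were judged by a 95% binomial interval that treats members as independent. Summed levels were judged by the SD of the 2 libraries, within which a single library of the group always lies. The tally is therefore no measure of how firm the results are. No paired analysis was possible because the labels give no replicate numbers, and the numbers used here follow accession order. KO anti-GBM against WT anti-GBM gave 1 called member with library size alone (0.360% of members tested, beside 0.862% of all), 1 with DESeq2 (4%, beside 2.32%), 2 without the 3 libraries of low coverage breadth (0.629%, beside 7.44%; ncRNA_predict_16160 and ncRNA_predict_5377) and 0 to 1 with a library left out; KO UUO against KO anti-GBM gave 1 without the filter (0.0929%, beside 0.514%), 1 without the 3 libraries (0.314%, beside 3.02%; ncRNA_predict_16160, adjusted p = 0.0380, 0.0380 to 0.483 over 17 alternatives) and 0 to 2 with a library left out. With KO UUO 2 left out, the 2 were ncRNA_predict_3642 and ncRNA_predict_5619. In every fit with a library left out, for both comparisons, the share of members called was below that of all transcripts tested. A fit with a group of 1 library assumes that it varies like the others. The rule found 364 members at a minimum of 5 reads, 131 at 10, and 1446 to 2022 with a library left out of it: 1838 without WT UUO 1 and 2022 without WT UUO 2. The share listed in both WT anti-GBM libraries was 29.9% after thinning, 22.0% at 2 or more reads, 42.0% and 44.3% for members with 5 and 10 reads in WT UUO, and 39.1%, 41.0%, 29.3% and 43.4% in numbers 1 to 7000, 9001 to 15000, 21001 to 27000 and 27001 to 33000; single libraries listed 53.0% to 56.5%. In KO UUO it was 15.4% after thinning, 10.8% at 2 or more reads, 25.2% for members with 10 reads, and 37.0%, 44.0% and 8.70% in the first 3 of these ranges; single libraries listed 32.3% to 46.8%. In KO anti-GBM it was 2.41% at 2 or more reads, 6.52%, 5.97% and 2.71% in the first, second and last range, and 13.4% to 18.6% in single libraries. Mean summed CPM in WT anti-GBM was 305 with library size alone, where KO anti-GBM had 116 and KO UUO 474, and 159 outside numbers 21001 to 27000, and in KO anti-GBM 83.2 outside them; single libraries gave 230 to 262, 112 to 203, and 221 to 510 in KO UUO. Stricter minimums and single libraries change the counts by their construction; for the other moves the cause was not tested. With a median of 4 reads per member in WT UUO 2, low depth limits most members to presence or absence.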
